A study of Mus musculus with 6 samples.

Results

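The presynaptic active zone scaffolds are the proteins that build the release site of a nerve terminal. They were followed here as 10 genes chosen by symbol (Rims1, Rims2, Rims3, Bsn, Pclo, Unc13a, Unc13b, Unc13c, Erc2 and Rimbp2) out of the 36008 genes in the deposited gene table. All 10 were found in the mouse GENCODE M21 annotation (genome build GRCm38) and in every mouse, together with 78 of the 118783 deposited transcripts. Of these 78 transcripts, 5 were at 0 in every mouse. Polyadenylated RNA was sequenced from the hippocampus of 3 wild type (WT) and 3 Prmt9 knockout (Prmt9 KO) mice, all female littermates of the B6J strain at 2 weeks of age. Prmt9 codes for an arginine methyltransferase whose known substrate is the splicing factor SF3B2, so both the levels and the transcript forms of the scaffold genes were compared between genotypes. The KO mice lacked exon 5 of Prmt9 in the whole body, after CMV-Cre had deleted the floxed exon in the germline, so neurons and glia alike carried the deletion.

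At a release site, synaptic vesicles dock, are made ready to fuse and fuse next to calcium channels. RIM proteins bind the vesicle GTPase Rab3, the priming factor Munc13 and, with the help of RIM-binding proteins, the calcium channels. Munc13 proteins open syntaxin so that SNARE complexes can form. Bassoon and Piccolo are very large scaffolds that are among the first proteins to reach a new synapse, and CAST/ELKS proteins tie RIM, Bassoon and the other partners together. Many of these genes make long and short forms from internal start sites and carry short alternative exons that are spliced mainly in neurons.

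The genotype labels held for the targeted gene, and the mice that carry the number 1 in both genotypes stood apart from the others. Prmt9 had 11.8, 15.2 and 14.96 TPM (a kallisto unit that scales reads to transcript length and to the depth of the mouse) in WT replicates 1 to 3 and 3.93, 4.61 and 4.67 TPM in the KO mice. Its log2 fold change was −1.71 ± 0.10 (SE, edgeR quasi-likelihood test, adjusted p = 0.0327). The estimated counts summed to between 194098391 and 286771677 per mouse. WT replicate 1 and KO replicate 1 lay apart on the first principal component of gene expression, which held 67.4% of the variance. Transcripts of at least 5000 bases held 4.29% and 5.42% of the TPM in these 2 mice, against 6.72% to 7.01% in the other 4 mice. Mbp, which codes for myelin basic protein of oligodendrocytes, had 1431 and 698 TPM in them against 4764 to 6772 TPM in the others. Pdgfra, a marker of their precursors, did not move with it (25.6 and 32.7 TPM against 29.5 to 33.3 TPM). The 5 markers of hippocampal excitatory neurons summed to 1684 and 1755 TPM in them against 2701 to 2879 TPM. Camk2a, Slc17a7, Prox1 and C1ql2 were each low in these mice. Neurod6 was not, with 122.9 and 147.5 TPM against 114.4 to 131.6 TPM. Of the 5 general neuron markers, Snap25 was low (517 and 781 against 1132 to 1269 TPM), as were Syt1, Rbfox3 and Map2, and Stmn2 was high (880 and 1170 against 345 to 393 TPM). Ttr, a choroid plexus marker, had 7157 TPM in WT replicate 1 and 589 to 3261 TPM in the other 5 mice. The part of these differences in the results was not tested. The 10 scaffold genes are given with and without these 2 mice.

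None of the 10 scaffold genes differed between WT and Prmt9 KO by more than 1.5-fold with an adjusted p under 0.01, the thresholds for a call. Of the 20315 genes tested in this edgeR fit 0% passed these thresholds, so the count of 0 members says nothing particular about the scaffolds. Even the deleted gene Prmt9 did not pass them in this fit (edgeR, adjusted p = 0.0327). Of the 10 genes, 1 (Unc13c) had an unadjusted p below 0.05, against 1.24% of all genes tested. DESeq2 on the same counts also gave 0 calls and 1 gene with an unadjusted p below 0.05, and limma on log2(TPM + 1) gave 0 and 0. Their log2 fold changes lay between −0.16 and 0.33, 5 above and 5 below 0, with a median of 0.017 beside −0.011 over all genes tested. In TPM the 3 KO mice lay wholly above the 3 WT mice for 1 gene (Unc13b) and overlapped with them for the other 9, against 6.67% of all genes with groups that do not overlap. In whole tissue, fewer cells of a type and less RNA per cell cannot be told apart.

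**Figure D1:**
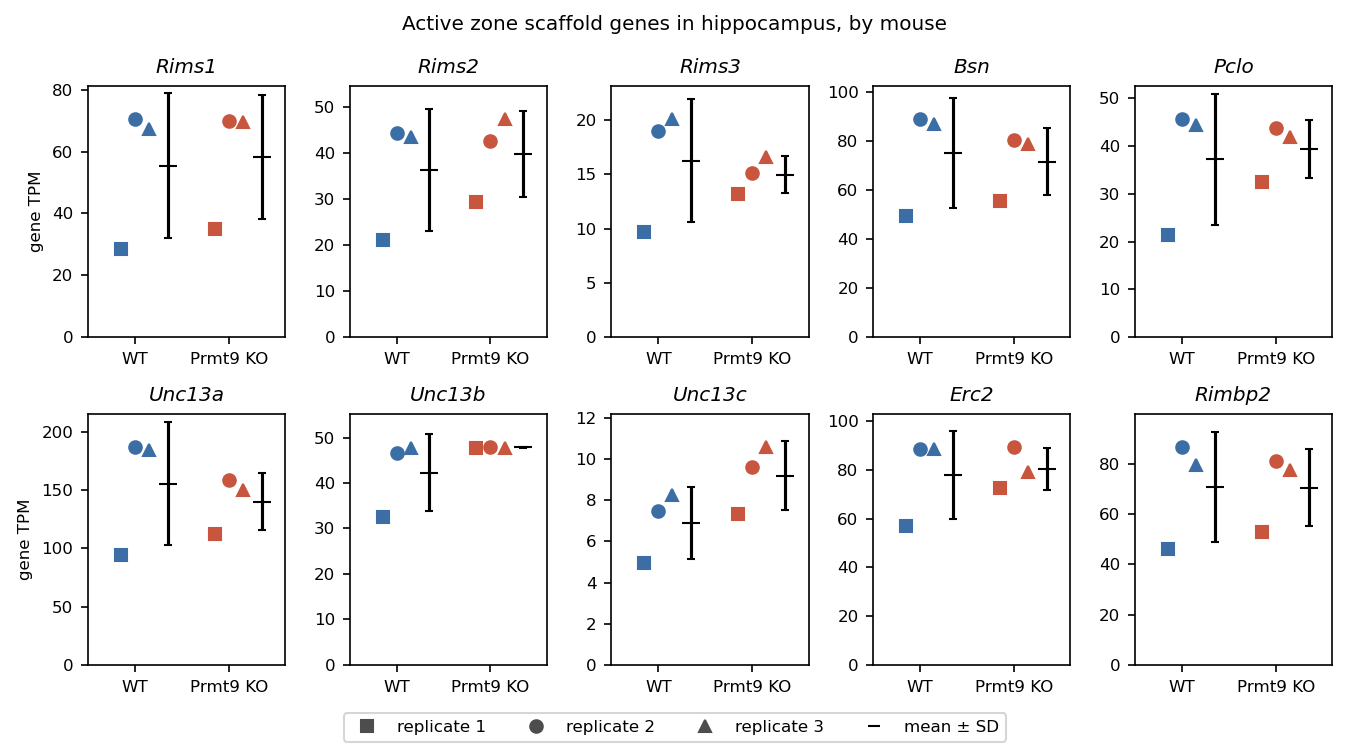
TPM of the 10 scaffold genes in each mouse (vertical axes, linear and starting at 0, different for each gene), for WT (blue) and Prmt9 KO (red), with the replicate number as the shape of the point and bars for the mean ± SD of 3 mice. The squares, WT replicate 1 and KO replicate 1, lie lowest in their group for every gene, by the least for Unc13b, whose 3 KO mice lie between 47.8 and 48.0 TPM.

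Per transcript length the scaffold genes covered a wide range of levels, in the same broad order in both genotypes. Unc13a was highest, with a WT mean of 156 TPM, and lay above the next gene in 6 of 6 mice. Erc2 (78.0 TPM), Bsn (75.0 TPM) and Rimbp2 (70.7 TPM) followed. Erc2 lay above Bsn in 5 of 6 mice, Bsn lay above Rimbp2 in 5 of 6 mice, and the WT ranges of each pair of neighbours overlapped. Rims1 (55.4 TPM), Unc13b (42.3 TPM), Pclo (37.2 TPM) and Rims2 (36.3 TPM) had overlapping WT ranges with their neighbours as well, and Rims1 lay above Unc13b in 4 of 6 mice. Rims3 (16.3 TPM) and Unc13c (6.90 TPM) stood lowest, each below its neighbour in 6 of 6 mice with no overlap in WT.

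Among the priming factors, the Munc13 genes, Unc13a and Unc13c had log2 fold changes of opposite sign. Unc13a, which codes for the main Munc13 of excitatory terminals in the forebrain, had 94.4, 188 and 185 TPM in WT replicates 1 to 3 and 112, 159 and 149.9 TPM in the KO mice. The groups overlapped because WT replicate 1 was lowest of all, while KO replicates 2 and 3 lay below WT replicates 2 and 3. Its log2 fold change was −0.16 ± 0.17 (SE, edgeR, adjusted p = 0.9999). Without the 2 mice numbered 1 it was −0.23 ± 0.04 (SE, edgeR, unadjusted p = 0.00128, adjusted p = 0.126). Unc13b, which codes for a second brain Munc13, had 32.6, 46.5 and 47.7 TPM in WT and 47.8, 48.0 and 47.8 TPM in KO. The KO mice all lay above the WT mice, but WT replicate 3 and the lowest KO mouse were nearly equal, and most of the difference in the means came from WT replicate 1. The log2 fold change of 0.16 ± 0.10 (SE) became 0.06 ± 0.03 (SE) without the mice numbered 1, with edgeR adjusted p of 0.9999 and 0.437.

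Unc13c, which codes for the Munc13 best known from the cerebellum, was the scaffold gene with the largest log2 fold change. It had 4.93, 7.48 and 8.28 TPM in WT and 7.34, 9.61 and 10.6 TPM in KO. Each KO mouse lay above the WT mouse of its number, though the labels do not state that numbers pair the mice. The lowest KO mouse lay below WT replicates 2 and 3. The KO mean was 133% of the WT mean, with a log2 fold change of 0.33 ± 0.12 (SE, edgeR, unadjusted p = 0.0326, adjusted p = 0.9999). With the replicate number as a block in the fit the estimate was 0.33 ± 0.05 (SE, edgeR, unadjusted p = 0.00119, adjusted p = 0.799), and without the mice numbered 1 it was 0.34 ± 0.06 (SE, adjusted p = 0.132). The 3 cerebellar granule cell markers summed to 9.13 to 11.3 TPM in WT and 11.96 to 23.2 TPM in KO, nearly all of it Cbln1. Gabra6, the defining marker, had at most 0.819 TPM in any mouse and was at 0 in WT replicate 1, and Cbln3 had at most 1.10 TPM.

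The RIM genes did not differ between genotypes by more than the spread between mice. Rims1 and Rims2 code for the long RIM proteins that recruit Munc13 and calcium channels. Rims1 had 28.4, 70.6 and 67.3 TPM in WT and 35.02, 69.96 and 69.5 TPM in KO, with nearly equal values in the 4 mice numbered 2 and 3. Rims2 had 21.1, 44.5 and 43.4 TPM in WT and 29.5, 42.7 and 47.5 TPM in KO. In both genes the level in the mice numbered 1 was far below that of the others, and the groups overlapped. The log2 fold changes were 0.07 ± 0.29 (SE) for Rims1 and 0.11 ± 0.22 (SE) for Rims2, and 0.05 ± 0.04 and 0.06 ± 0.05 without the mice numbered 1. Rims3, which codes for a short RIM that holds little more than the C-terminal C2 domain, had 9.73, 19.0 and 20.1 TPM in WT and 13.2, 15.1 and 16.6 TPM in KO. Its KO replicates 2 and 3 lay below WT replicates 2 and 3 and above WT replicate 1. The log2 fold change of −0.15 ± 0.18 (SE) became −0.29 ± 0.06 (SE) without the mice numbered 1 (edgeR, unadjusted p = 0.00307, adjusted p = 0.143).

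Bsn and Pclo, the genes of Bassoon and Piccolo, also overlapped between genotypes. Bsn had 49.3, 88.9 and 86.8 TPM in WT and 55.6, 80.1 and 78.6 TPM in KO. The KO mice numbered 2 and 3 lay below both WT mice of these numbers, and the mice numbered 1 lay below them all. The log2 fold change was −0.15 ± 0.25 (SE), and −0.17 ± 0.04 (SE) without the mice numbered 1 (edgeR, unadjusted p = 0.00623, adjusted p = 0.163). Pclo had 21.4, 45.7 and 44.4 TPM in WT and 32.3, 43.8 and 41.9 TPM in KO. Its log2 fold change of 0.04 ± 0.29 (SE) turned to −0.07 ± 0.05 (SE) when the mice numbered 1 were left out.

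Erc2, which codes for CAST, and Rimbp2, which codes for a RIM-binding protein, had nearly equal means in the genotypes. Erc2 had 57.1, 88.5 and 88.4 TPM in WT and 72.4, 89.6 and 79.4 TPM in KO. Rimbp2 had 46.0, 86.8 and 79.4 TPM in WT and 53.0, 80.8 and 77.6 TPM in KO. The log2 fold changes were −0.0015 ± 0.10 (SE) and −0.0080 ± 0.19 (SE), and −0.07 ± 0.06 and −0.03 ± 0.04 without the mice numbered 1. For Rimbp2, the gene table exceeded the sum of its 7 annotated transcripts by 4.16 to 7.47 TPM, a part held by no transcript of the annotation used here. For the other 9 genes the table and the sum were equal within 0.01 TPM.

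Leaving out both mice numbered 1 narrowed the errors of the scaffold genes and of the other genes alike. Then 4 of the 10 scaffold genes (Unc13a, Unc13c, Rims3 and Bsn) had an unadjusted p below 0.05, against 16.4% of all genes in the same fit, and none had an adjusted p below 0.126. In TPM, 6 of the 10 had groups of 2 that do not overlap (2 higher and 4 lower in KO), against 48.3% of all genes. When all 6 mice were fitted with the mice numbered 1 as a batch, 2 of the 10 (Unc13c and Bsn) had an unadjusted p below 0.05, and none had an adjusted p below 0.377. The share over all genes was not taken in that fit, so this count is not read as a result about the scaffolds.

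**Figure D2:**
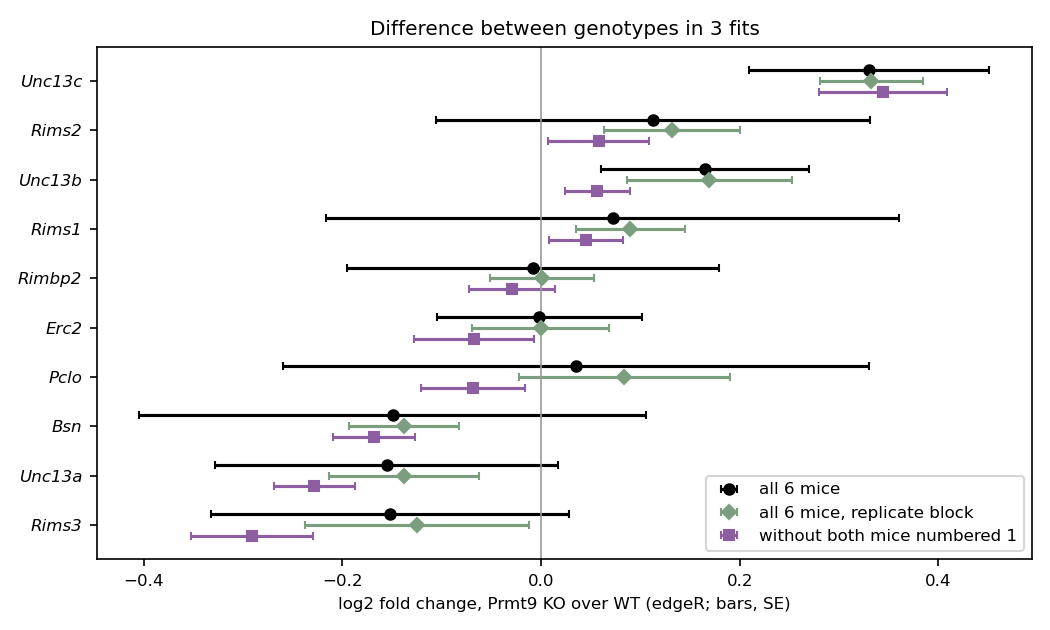
Log2 fold change of each scaffold gene between Prmt9 KO and WT (horizontal axis) in 3 edgeR fits, all 6 mice (black circles), all 6 mice with a replicate block (green diamonds) and 4 mice without the pair numbered 1 (purple squares), with bars for the SE. Unc13c lies at 0.33 to 0.34 in the 3 fits, and Pclo goes from 0.04 to −0.07 when the mice numbered 1 are left out.

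In the mice numbered 1, the scaffold genes were further below the other replicates than genes at large. In WT replicate 1 the scaffold genes stood at a median of 0.531 times the mean of WT replicates 2 and 3 (range 0.412 to 0.692), against 0.757 for all genes tested and 0.611 for genes whose longest transcript has at least 5000 bases. In KO replicate 1 the medians were 0.727, 0.896 and 0.785. Rims1 had the lowest ratio in both mice (0.412 and 0.502), and Unc13b the highest (0.692 and 0.997).

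Within Bsn and Pclo, transcripts of the same gene went apart in these mice. The 15938-base transcript of Bsn (Bsn-201), which holds the full coding sequence, had 20.1, 57.8 and 54.8 TPM in WT and 21.8, 50.7 and 47.3 TPM in KO. The 7496-base transcript (Bsn-202), which starts further 3′, had 29.2, 31.1 and 32.0 TPM in WT and 33.8, 29.5 and 31.4 TPM in KO. Thus the long form was far lower in the mice numbered 1, and the short form was level in all 6 mice. For Pclo, the 16846-base Pclo-202 had 1.76, 14.2 and 13.1 TPM in WT and 2.55, 13.9 and 10.9 TPM in KO. The 6738-base Pclo-204 had 14.4, 19.9 and 20.3 TPM in WT and 21.2, 18.6 and 19.9 TPM in KO. The longest Pclo transcript, the 20084-base Pclo-201, had its highest share of the Pclo TPM in the mice numbered 1. This share was 0.244, 0.224 and 0.217 in WT and 0.257, 0.234 and 0.240 in KO. In TPM, Pclo-201 was still lowest in the mice numbered 1, but less far down than Pclo-202. It stood at 0.526 (WT) and 0.821 (KO) times the mean of replicates 2 and 3, and Pclo-202 at 0.129 and 0.206 times. A 390-base Unc13a transcript annotated for nonsense-mediated decay (Unc13a-203, singled out after its values were seen) went the other way, with 7.03 and 6.58 TPM in the mice numbered 1 and at most 0.339 TPM in the others.

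**Figure D3:**
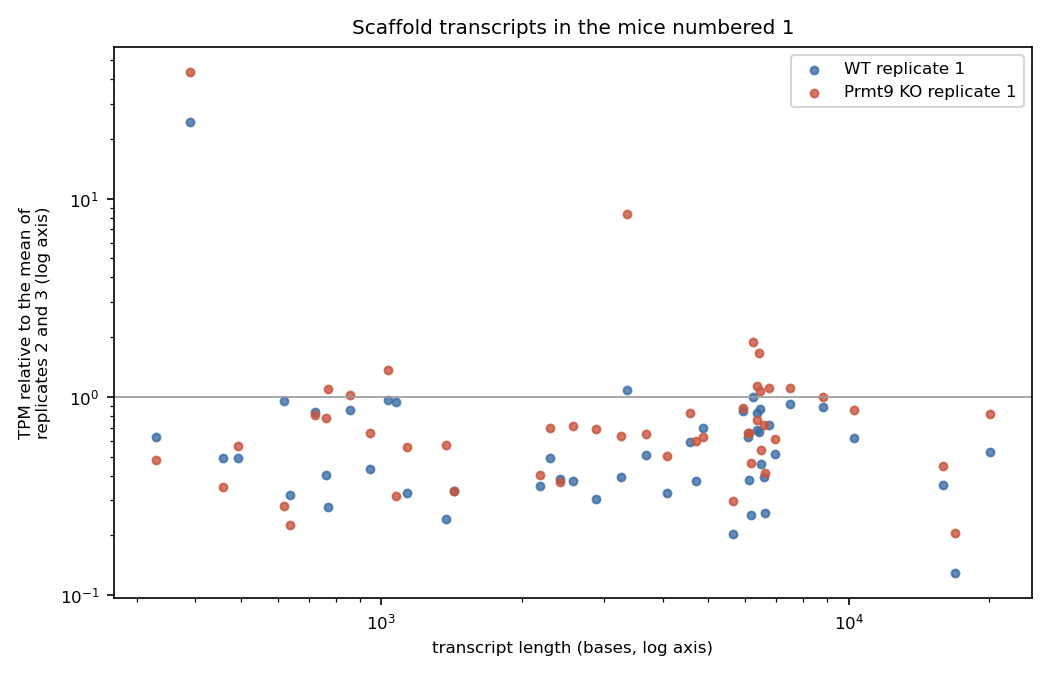
TPM of each scaffold transcript in WT replicate 1 (blue) and KO replicate 1 (red) relative to the mean of replicates 2 and 3 of the same genotype (vertical axis, log scale) against transcript length (horizontal axis, log scale), for the 49 transcripts with a mean of at least 1 TPM. In WT replicate 1, 47 of the 49 lie below 1 and in KO replicate 1, 38, and the uppermost points, at 24.3 and 43.5, are the 390-base Unc13a-203.

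The next question was whether the scaffold genes used different transcripts in the 2 genotypes. None of the 10 genes passed edgeR's test of transcript usage at an adjusted p below 0.01, against 0.162% of the 13560 genes tested. Of the 39 transcript shares tested by limma, 1 had an unadjusted p below 0.05, against 2.79% of all shares, and 3 had groups that do not overlap, against 9.86%. The smallest adjusted p was 0.9997. The median absolute difference between the genotypes was 0.0143 of the gene's TPM, beside 0.0171 over all shares tested.

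The share with an unadjusted p below 0.05 belonged to Rimbp2. The 620-base transcript Rimbp2-206, a partial transcript with 301 coding bases, held a share of 0.0887, 0.0539 and 0.0476 of the Rimbp2 TPM in WT and of 0.0112, 0.0256 and 0.0268 in KO. Every KO mouse lay below every WT mouse. In TPM it had 3.71, 4.33 and 3.45 in WT and 0.532, 1.88 and 1.89 in KO. The log2 ratio of this transcript to the rest of the gene differed by −1.59 ± 0.51 (SE, limma, unadjusted p = 0.0197, adjusted p = 0.9997). With the mice numbered 1 left out it differed by −0.95 ± 0.20 (SE, limma, unadjusted p = 0.00851, adjusted p = 0.484), and the difference in share went from −0.0422 to −0.0245. With a replicate block the unadjusted p was 0.0451. On estimated counts the difference in share was −0.0035. Taken against the gene table, which holds the part outside the annotation, the mean share went from 0.0580 ± 0.0199 to 0.0192 ± 0.0080 (SD, n = 3 each, groups still not overlapping). The usage test for the whole gene gave an adjusted p of 1 in all 6 mice. It was 0.0774 without both mice numbered 1, 0.168 with a replicate block and 0.0671 with the batch term, and the lowest of 12 alternatives was 0.0151 without WT replicate 1.

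In 2 further transcripts every KO mouse lay on 1 side of the WT mice by a small step. Rims2-204, which codes for a short C-terminal form, held 0.434, 0.417 and 0.401 of the Rims2 TPM in WT and 0.396, 0.397 and 0.399 in KO. Rims1-206, one of the long forms, held 0.0558, 0.0615 and 0.0598 of the Rims1 TPM in WT and 0.0897, 0.0650 and 0.0722 in KO. The nearest mice of the 2 groups were close, at 0.401 and 0.399 for Rims2-204 and at 0.0615 and 0.0650 for Rims1-206. Their unadjusted p were 0.425 and 0.208 by limma.

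The 2 most abundant transcripts of the other genes overlapped between genotypes in their shares. For Unc13a, Unc13a-201, the full-length form, held 0.479 ± 0.058 of the TPM in WT and 0.503 ± 0.051 in KO (SD, n = 3 each). Unc13a-207, a 1136-base transcript annotated with a retained intron, held 0.233 ± 0.054 and 0.234 ± 0.034 (SD, n = 3 each). For Unc13b, the full-length Unc13b-201 held 0.301 ± 0.032 and 0.305 ± 0.028, and the 856-base retained-intron transcript Unc13b-211 held 0.266 ± 0.035 and 0.247 ± 0.006 (SD, n = 3 each). Both Munc13 genes thus had a large part of their TPM in short transcripts without a coding sequence, in WT and KO alike.

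For Unc13c, the 8796-base Unc13c-202 held 0.826, 0.582 and 0.578 of the TPM in WT and 0.738, 0.546 and 0.529 in KO, and Unc13c-201, with the same coding length, held the rest. Both transcripts had a higher mean TPM in KO than in WT. Unc13c-202 had 4.07, 4.35 and 4.79 TPM in WT and 5.42, 5.25 and 5.61 TPM in KO. Unc13c-201 had 0.856, 3.13 and 3.49 TPM in WT and 1.92, 4.36 and 4.999 TPM in KO.

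Among the RIM genes, Rims1-202 held 0.239 ± 0.010 of the Rims1 TPM in WT and 0.218 ± 0.036 in KO, and Rims1-208 held 0.202 ± 0.018 and 0.197 ± 0.024 (SD, n = 3 each). Rims2-206 held 0.226 ± 0.034 and 0.247 ± 0.035 of the Rims2 TPM. The most abundant forms of Rims3, Rims3-201 and Rims3-202, code for the same length of protein and differ at their start. Rims3-201 held 0.637, 0.698 and 0.688 in WT and 0.439, 0.702 and 0.656 in KO, so only KO replicate 1 stood apart. For Erc2, the share of Erc2-208 was 0.326 ± 0.016 in WT and 0.295 ± 0.050 in KO, and that of Erc2-201 was 0.185 ± 0.009 and 0.184 ± 0.028 (SD, n = 3 each). For Rimbp2, the most abundant transcript, with 6966 bases, held 0.473 ± 0.030 and 0.502 ± 0.024, and Rimbp2-207 held 0.237 ± 0.065 and 0.241 ± 0.036 (SD, n = 3 each).

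**Figure D4:**
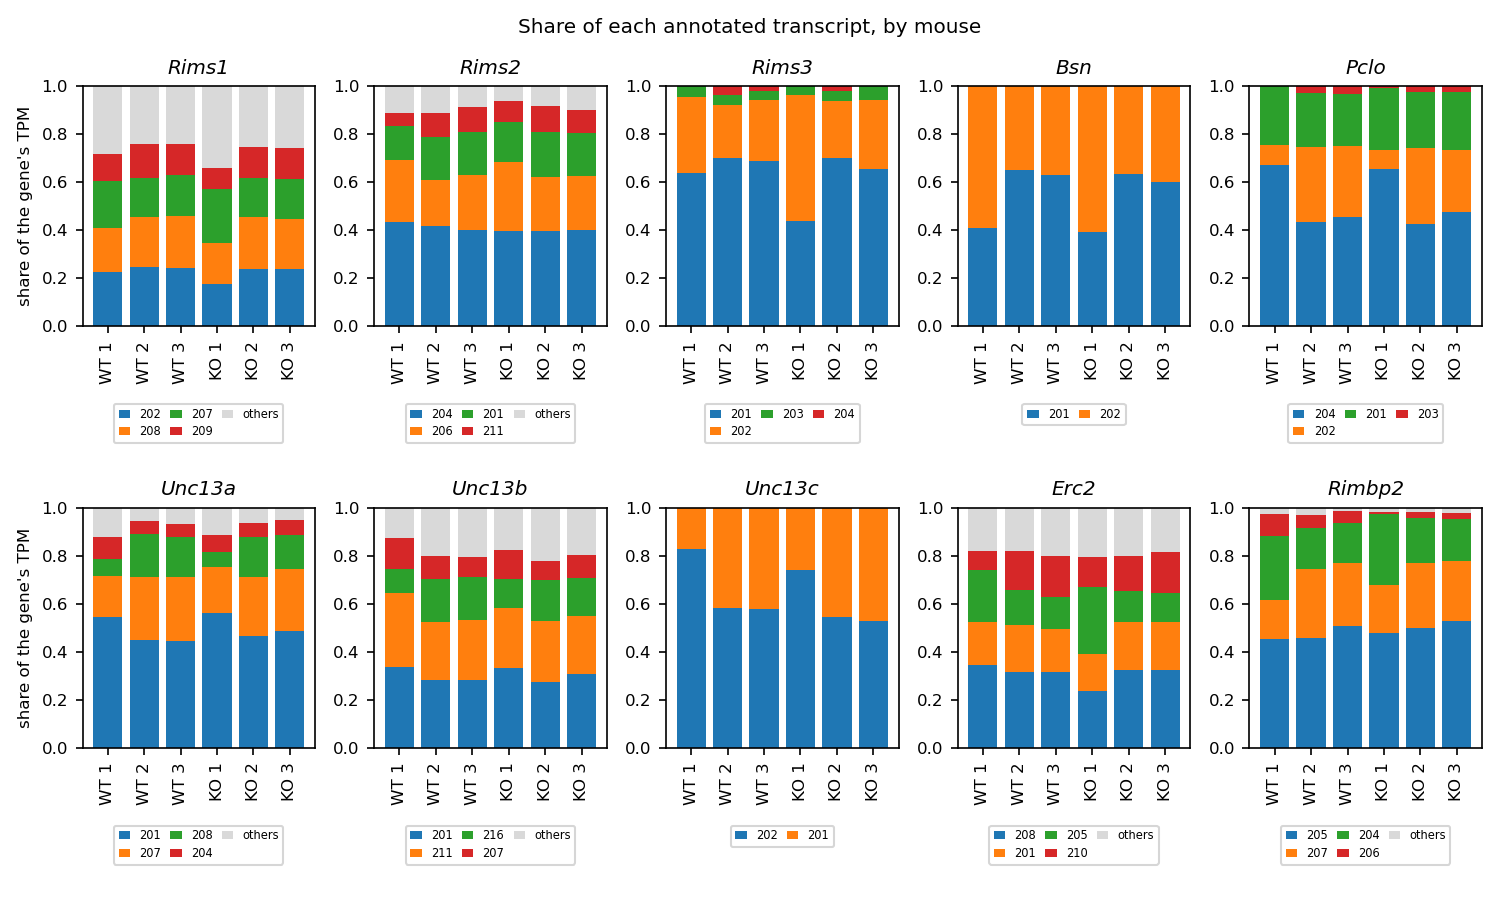
Share of each scaffold gene's TPM held by its 4 most abundant annotated transcripts (colours, named by the number after the gene symbol) and by all others (grey) in each of the 6 mice, as stacked bars from 0 to 1. Bsn-201 (blue) holds 0.408 and 0.393 in the mice numbered 1 and 0.601 to 0.650 in the other 4 mice.

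The start sites followed the transcripts. Overlapping first exons were joined into a start, and 29 start shares in all 10 genes were tested. Of these, 1 had an unadjusted p below 0.05, against 2.52% of all start shares, and the same 1 had groups that do not overlap, against 9.38%. It was the Rimbp2 start at chr5:128876954-128877066, which belongs to Rimbp2-206 alone and so repeats its values (limma, unadjusted p = 0.0172, adjusted p = 0.9995). The 5′-most Rims1 start at chr1:22805561-22805994, which the annotated forms from the 5′ end of the gene use, held 0.621 ± 0.008 in WT and 0.618 ± 0.012 in KO (SD, n = 3 each). The 5′-most Unc13a start at chr8:71671626-71671757 was as steady, with 0.644 ± 0.010 and 0.651 ± 0.004 (SD, n = 3 each), although the level of the gene differed between the mice.

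In several genes an internal start held as much as the 5′ start or more. The Rims2 start nearest the 3′ end, at chr15:39659566-39659926, held 0.474 ± 0.026 of the gene's TPM in WT and 0.437 ± 0.015 in KO, and the start at chr15:39436997-39437922 held 0.226 ± 0.034 and 0.247 ± 0.035 (SD, n = 3 each). The main Rimbp2 start at chr5:128819743-128820069 held 0.674 ± 0.046 and 0.719 ± 0.047, against 0.263 ± 0.065 and 0.260 ± 0.038 for the 5′-most start (SD, n = 3 each). For Erc2, the 5′-most start at chr14:27622428-27622614 and the internal start at chr14:27876070-27876202 held 0.364 ± 0.052 and 0.367 ± 0.025 in WT and 0.371 ± 0.060 and 0.331 ± 0.067 in KO (SD, n = 3 each). The 5′-most Unc13b start at chr4:43058953-43059285 held 0.338 ± 0.033 and 0.353 ± 0.026, ahead of the start of Unc13b-211 at chr4:43249167-43249581. For Pclo the 5′ start held 0.478 ± 0.132 in WT and 0.482 ± 0.122 in KO (SD, n = 3 each), with the lowest values in the mice numbered 1. None of these start shares had groups that do not overlap.

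The last question was whether the alternative exons of the scaffold genes were spliced differently. The annotation gave 30 splicing events that could be tested in 8 of the 10 genes, namely 15 cassette exons, 7 retained introns, 3 alternative 5′ splice sites, 3 alternative 3′ splice sites and 2 pairs of mutually exclusive exons. None had an unadjusted p below 0.05 by limma, against 3.2% of all events tested, and 1 had groups that do not overlap, against 10.6%. The percent spliced in (PSI) was taken as the TPM of the transcripts with the exon over that of all transcripts which hold or skip it, so events that rest on the same transcripts share their values. The median absolute difference was 0.00985, beside 0.0207 over all events tested.

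The alternative exons themselves were mostly short, and most had a length that is a multiple of 3. Of the 15 cassette exons tested, 14 (93.3%) had a length that is a multiple of 3, beside 51.0% of the 7978 cassette exons tested in all genes. In the same sets, 4 (26.7%) and 5.74% had at most 27 bases, the length of a microexon. Of all 19 cassette and mutually exclusive exons, 17 were wholly coding. The 66-base Erc2 exon was not, though its length is a multiple of 3, so length alone does not show that the reading frame is kept. Neither set of cassette exons was limited to coding exons. The sequences shown next, read from the GENCODE M21 transcripts of GRCm38 and given 5′ to 3′ on the strand of the gene, are those whose inclusion is described in the text.

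Unc13a and Unc13b each carry a cassette exon of 57 bases in the 3′ part of the gene, and these exons are related, with the same base at 40 of 57 positions (70.2%) when set side by side without gaps. The Unc13a exon lies at chr8:71633439-71633495 on the reverse strand and the Unc13b exon at chr4:43260993-43261049 on the forward strand. Capitals mark the positions at which they differ.
Unc13a 57-base exon: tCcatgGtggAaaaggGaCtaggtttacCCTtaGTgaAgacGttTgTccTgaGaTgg
Unc13b 57-base exon: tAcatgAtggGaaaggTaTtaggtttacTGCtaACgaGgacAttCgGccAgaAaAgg

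The PSI of the Unc13a exon was 0.113, 0.289 and 0.269 in WT and 0.1005, 0.261 and 0.226 in KO. That of the Unc13b exon was 0.172, 0.308 and 0.309 in WT and 0.197, 0.305 and 0.269 in KO. In both genes the exon was included least in the mice numbered 1 and the groups overlapped (exact permutation tests, two-sided, 3 mice per group, p = 0.5 and p = 0.8). The 2 exons thus stood at like levels, below 0.31 in every mouse, as estimated from whole transcripts. The Unc13b value rests on Unc13b-216, since Unc13b-203, the other form with the exon, was at 0 in every mouse. Unc13b-216 has a start of its own. The forms without the exon include the 1036-base Unc13b-207, annotated with a retained intron. All 3 KO mice lay below the WT mouse of their number for the Unc13a exon, though the labels do not state that numbers pair the mice (limma with a replicate block, unadjusted p = 0.130). This PSI rests on a pair of transcripts, Unc13a-208 (5654 bases) with the exon and Unc13a-201 (10255 bases) without it. In the mice numbered 1, Unc13a-208 stood at 0.204 and 0.297 times the other replicates of its genotype, and Unc13a-201 at 0.621 and 0.859 times.

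Erc2 and Rimbp2 also carry short cassette exons. Of those shown, the Erc2 exons lie at chr14:27776159-27776182, chr14:28029434-28029469 and chr14:28046475-28046486 on the forward strand, and that of Rimbp2 at chr5:128811983-128812003 on the reverse strand, where it falls in the coding sequence.
Erc2 24-base exon: ttactggacgccagaagaaccaag
Erc2 36-base exon: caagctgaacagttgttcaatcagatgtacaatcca
Erc2 12-base exon: cttgactctcag
Rimbp2 21-base exon: aacaccctggactgcatgcag

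The PSI of the 24-base Erc2 exon was 0.450, 0.302 and 0.287 in WT and 0.509, 0.295 and 0.258 in KO. The 36-base exon had 0.202 ± 0.052 in WT and 0.221 ± 0.112 in KO, and the 12-base exon was mostly included, with 0.772 ± 0.009 and 0.771 ± 0.032 (SD, n = 3 each). The 21-base Rimbp2 exon had a PSI of 0.275, 0.177 and 0.170 in WT and 0.2997, 0.190 and 0.177 in KO. For all 4 exons the mice numbered 1 had the highest PSI in their group, the reverse of the Munc13 exons. For the 12-base Erc2 exon the step was small in WT (0.778 against 0.762 and 0.777). Between genotypes the 4 exons differed by less than the spread between mice.

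RIM proteins are known to vary by alternative splicing. The Rims1 exons of 72 and 84 bases lie at chr1:22404444-22404515 and chr1:22412211-22412294 on the reverse strand, and the Rims2 exon of 78 bases at chr15:39610064-39610141 on the forward strand.
Rims1 72-base exon: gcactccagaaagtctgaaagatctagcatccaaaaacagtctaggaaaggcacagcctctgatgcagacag
Rims1 84-base exon: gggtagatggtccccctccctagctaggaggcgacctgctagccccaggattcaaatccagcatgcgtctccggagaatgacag
Rims2 78-base exon: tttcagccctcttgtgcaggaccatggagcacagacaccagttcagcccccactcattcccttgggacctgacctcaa

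The 72-base Rims1 exon had a PSI of 0.508, 0.601 and 0.616 in WT and 0.467, 0.580 and 0.528 in KO. The KO mean minus the WT mean was −0.0505, the lowest such difference among the 15 cassette exons, and the groups overlapped (exact permutation test, two-sided, 3 mice per group, p = 0.3). Each KO mouse lay below the WT mouse of its number, though the labels do not state that numbers pair the mice (limma with a replicate block, unadjusted p = 0.122). This PSI compares only Rims1-203, with the exon, and Rims1-206, without it, which had 3.22 to 10.9 TPM together. Rims1-206 is also the transcript whose share was higher in every KO mouse, so the 2 results are not separate. The 84-base exon had 0.643 ± 0.005 in WT and 0.637 ± 0.039 in KO (SD, n = 3 each). The 78-base Rims2 exon had 0.614, 0.492 and 0.527 in WT and 0.618, 0.524 and 0.529 in KO. It rests on the same transcripts as the pair of mutually exclusive Rims2 exons, whose values are therefore equal to these. Rims2-206 is the only form with the 78-base exon and starts at chr15:39436997-39437922, while the forms without it use the 5′-most start. For the 84-base and 78-base exons, start choice and inclusion cannot be told apart.

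**Figure D5:**
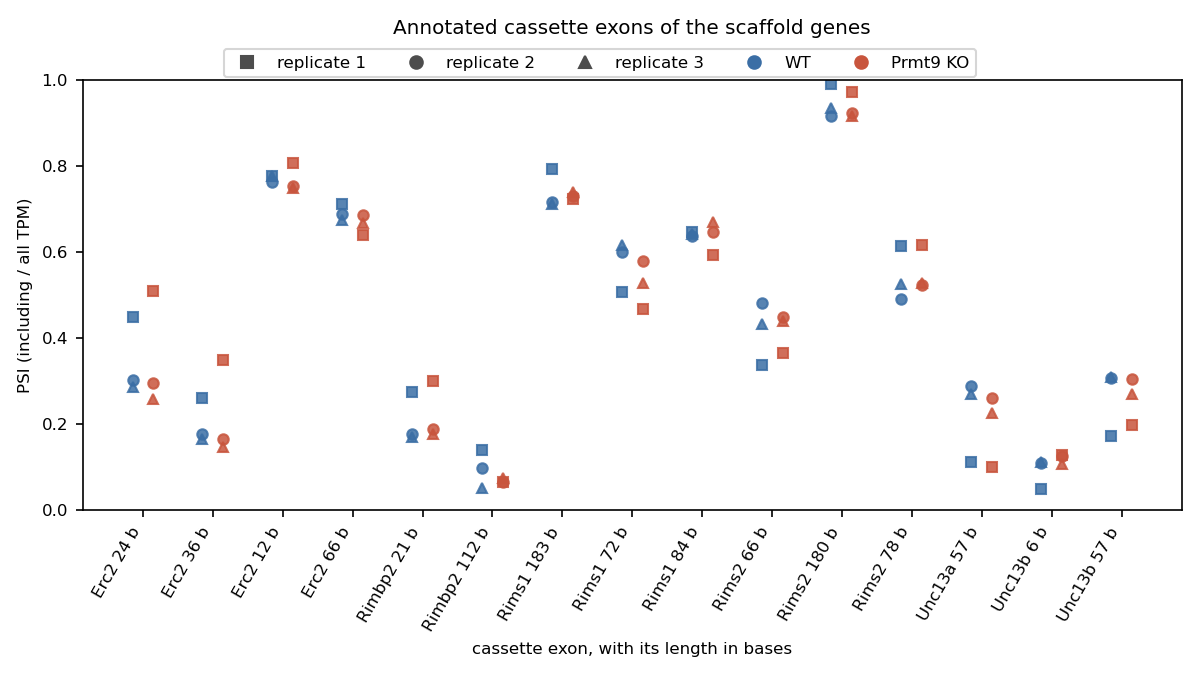
PSI of the 15 tested cassette exons of the scaffold genes (vertical axis, 0 to 1) in each WT (blue) and Prmt9 KO (red) mouse, with the replicate number as the shape of the point and the exon named by its gene and length in bases. The groups overlap for all 15 exons, and the squares of the mice numbered 1 stand apart from the other points for the 57-base exon of Unc13a, at 0.113 and 0.1005.

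The event with groups that do not overlap was a retained intron of Unc13b at chr4:43233910-43234665. Its share was 0.610, 0.532 and 0.521 in WT and 0.351, 0.487 and 0.481 in KO, so every KO mouse lay below every WT mouse and KO replicate 1 was lowest. The means were 0.555 ± 0.049 and 0.440 ± 0.077 (SD, n = 3 each, exact two-sided permutation test, p = 0.1, the smallest this design can give). By limma the unadjusted p was 0.0576 and the adjusted p was 1. The difference of −0.115 became −0.0704 without KO replicate 1 and −0.0425 without both mice numbered 1. The event compares only Unc13b-209 with Unc13b-213, which had 2.02 to 6.45 TPM together, in a gene with over 32 TPM in every mouse. Unc13b-209, the form with the intron, had means of 2.51 TPM in WT and 2.54 TPM in KO, and Unc13b-213 had 2.15 and 3.18 TPM. As a check over the gene chosen after these values were seen, all Unc13b transcripts annotated with a retained intron held 0.511, 0.455 and 0.457 of its TPM in WT and 0.444, 0.449 and 0.442 in KO.

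The genes whose products bind the scaffolds or sit beside them at the active zone were taken from the same fit. All 32 partners on the list (among them vesicle Rab proteins and their effectors, liprins, calcium channel subunits, adaptors of the Cask and Git complexes, Ctbp1 and Ctbp2, and further members of the scaffold families) were tested by edgeR. The thresholds for a call were passed by 0 partners, against 0% of all genes tested. An unadjusted p below 0.05 was found for 0 partners, against 1.24% of all genes. Both counts are near the shares over all genes and say nothing particular about the partners. Of them, 17 had a log2 fold change above 0 and 15 below, with a median of 0.010 beside −0.011 over all genes tested. The extremes were Lin7b, an adaptor of the Cask complex, at −0.37 ± 0.34 (SE), and Rph3a, which codes for the Rab3 effector rabphilin, at −0.21 ± 0.17 (SE). At the other end were Ctbp2, which codes for the ribbon synapse protein RIBEYE and a transcriptional corepressor, at 0.18 ± 0.09 (SE), and Rab3b at 0.16 ± 0.32 (SE).

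Lin7b had 304 and 230.4 TPM in the mice numbered 1 against 165 to 187 TPM in the others, and Rab3b had 89.8 and 138 TPM against 70.8 to 78.9 TPM, and without these mice the log2 fold change of Lin7b was −0.16 and that of Rab3b turned to −0.028. Rph3a had 111, 194.2 and 198 TPM in WT and 120, 161 and 171 TPM in KO, so KO replicates 2 and 3 lay between the mice numbered 1 and WT replicates 2 and 3. With the mice numbered 1 left out its log2 fold change was −0.24 (edgeR, unadjusted p = 0.00103, adjusted p = 0.123). Ctbp2 had 25.0, 34.5 and 34.9 TPM in WT and 34.8, 37.2 and 37.4 TPM in KO. The lowest KO mouse and the highest WT mouse were nearly equal.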

How the data were processed

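The authors aligned and quantified polyA+ libraries (stranded TruSeq preparation, paired-end reads) and deposited kallisto's estimated count and TPM for each transcript and mouse, with a gene table of TPM. The submitters' notes name STAR 2.7.1a and kallisto 0.46.0. TPM divides each estimated count by transcript length and depth, and kallisto spreads reads shared by overlapping forms, so shares of similar transcripts are estimates. The deposited identifiers were matched to GENCODE M21 (116622 of 118783, and 2161 were left out). Estimated counts were rounded to whole numbers, summed per gene and tested with edgeR 4.0.16 (R 4.3.3, quasi-likelihood, TMM, default filter on low counts), with DESeq2 1.42.0 and limma 3.58.1 as alternatives. Transcript usage was tested with edgeR's diffSpliceDGE (Simes test per gene). Shares of transcripts, starts and splicing events were tested with limma on log2 ratios after adding 0.1 TPM, where both parts summed to at least 1 TPM in every mouse and the mean share lay between 0.05 and 0.95 in at least 1 genotype. Calls needed an adjusted p of 0.01 with a fold change of 1.5 or a share difference of 0.05, and Benjamini-Hochberg adjustment ran over all features. The scripts were tested on simulated data. Groups came from the genotype labels, each mouse is a sample of its own, and no column went unused. The labels' replicate numbers are not stated to mark a litter or day. The deviations of same-numbered mice from their group means correlated at 0.553, 0.415 and 0.383, each over 0.1, so the fit with a replicate block is given beside results it changes, while the fits without it, as the study's methods have it, stayed the main ones. Yet WT replicate 2 and KO replicate 3 correlated at 0.417, so the block sets the mice numbered 1 apart and little more. The named items were all 10 genes, their 2 most abundant transcripts and starts, the cassette exon nearest a PSI of 0.5 in each gene, items with an unadjusted p below 0.05 or groups that do not overlap, and the 2 partners at each extreme. Exon sequences shown for comparison beyond this rule were added. The members and lists were chosen with earlier results of these data known. An item on the lists of cell type markers is not reported here.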

Additional observations from a re-analysis of the deposited data

How the results depend on the processing

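No scaffold gene passed the thresholds for a call under any of the 14 alternatives. In most of them the deleted gene Prmt9 did not pass either, with an adjusted p from 0.0341 to 0.99997 where it failed. The share of all genes called was not taken in these alternatives, so the absence of calls says nothing particular about the scaffolds. Of the 140 log2 fold changes of the 10 genes under these alternatives, 116 kept their direction and 24 turned, and Rims3, Unc13a, Unc13b and Unc13c kept theirs in all 14. With the replicate block, 1 scaffold gene (Unc13c, log2 fold change 0.33) and 4 partners had an unadjusted p below 0.05, Rimbp2 turned to 0.0010, and no other direction or call of a scaffold gene changed. With the batch term, these counts were 2 and 4, Erc2 turned to 0.0013, Rimbp2 to 0.00078, and the adjusted p of Prmt9 went below 0.01 (log2 fold change −1.70). Without both mice numbered 1 the counts were 4 and 7, Pclo turned to −0.068, and Prmt9 passed as well (−1.67), as it did by DESeq2 (−1.71). Without the filter on low counts, Erc2 was at 0.0059 and Rimbp2 at 0.00048. On the TPM scale with limma, 0 scaffold genes had an unadjusted p below 0.05 with either pseudocount, Erc2 was at 0.067 and 0.069, and Rimbp2 at 0.022 and 0.023. Leaving out 1 mouse at a time gave 0 to 2 scaffold genes with an unadjusted p below 0.05 (2 without WT replicate 1, 0 without WT replicate 2, KO replicate 2 or KO replicate 3) and 0 to 1 partners (1 without WT replicate 1). The log2 fold changes then ranged from −0.15 to 0.27 for Rims1, −0.066 to 0.25 for Rims2, −0.34 to 0.030 for Bsn, −0.21 to 0.21 for Pclo, −0.036 to 0.059 for Erc2 and −0.15 to 0.12 for Rimbp2. The share of all genes with an unadjusted p below 0.05 was taken only for the main edgeR fit (1.24%) and without both mice numbered 1 (16.4%). Counts of such genes in the other fits are therefore not read as results about the scaffolds or partners.

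Long transcripts were low in the mice numbered 1 of both genotypes, and the cause was not tested. At 3 mice against 3 an exact permutation test cannot go below 0.1. Transcript shares rest on an assignment of reads among overlapping forms and on annotated transcripts alone, and reads across splice junctions were not used here.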
